A study of Mus musculus with 4 samples.

Results

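The genes described here are 40 imprinted genes of the mouse, listed by name and matched to Ensembl identifiers through GENCODE M21. The list was chosen with earlier results of these data known. Its shares beside those of all genes are therefore not those of an unselected set. They were 40 of 54532 gene identifiers, and 35 of the 40 were measured, meaning 1 FPKM (fragments per kilobase of exon, scaled to sequencing depth) or more in at least 1 stage. Expression was measured by RNA sequencing of fetal pancreas, described by the submitters as pancreatic epithelium. There was 1 sample at each of 4 stages, E11.5 and E13.5 in mid-gestation and E15.5 and E18.5 in late gestation, and all came from wild-type C57BL/6 embryos with no treatment. The sources used here do not say how the epithelium was separated. Each deposited value is a mean, and for most genes it could be resolved into whole reads of 2 libraries per stage, each holding an estimated 13231500 to 17336200 reads. No label says that these libraries came from separate embryos, so their spread may be technical, and p-values measure only that spread.

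Imprinted genes are transcribed mainly from the copy inherited from a given parent. The choice is set by DNA methylation placed in the germline at imprinting control regions, and many imprinted genes lie in clusters that share such a region. Several of them regulate fetal growth and nutrient supply, and in the pancreas imprinted loci such as Dlk1-Meg3, H19-Igf2, Kcnq1-Cdkn1c and Gnas are known from work on islet growth and insulin secretion. Some, such as Ube3a in neurons and Dcn in placenta, are known to be imprinted only in certain tissues. The parental origin of transcripts was not measured here, since the embryos were of a single inbred strain.

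Sequences of the following kinds carry the loci described below. The first is the promoter windows of Peg3, Nnat and Mest, paternally expressed genes whose promoters are known to be methylated on the maternal copy and whose levels differed between stages. Each window runs from 250 bases before to 50 bases after an annotated start (RefSeq, GRCm38.p6), with every CG dinucleotide, the substrate of that methylation, in capitals.
Peg3 (chr7:6730370-6730669, minus strand): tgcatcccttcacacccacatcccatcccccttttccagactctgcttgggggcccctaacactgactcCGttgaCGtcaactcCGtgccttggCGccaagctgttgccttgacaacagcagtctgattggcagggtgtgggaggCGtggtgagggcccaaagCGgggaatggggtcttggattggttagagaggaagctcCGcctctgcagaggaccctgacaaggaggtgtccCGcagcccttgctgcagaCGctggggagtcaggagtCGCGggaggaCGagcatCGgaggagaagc
Nnat (chr2:157559828-157560127, plus strand): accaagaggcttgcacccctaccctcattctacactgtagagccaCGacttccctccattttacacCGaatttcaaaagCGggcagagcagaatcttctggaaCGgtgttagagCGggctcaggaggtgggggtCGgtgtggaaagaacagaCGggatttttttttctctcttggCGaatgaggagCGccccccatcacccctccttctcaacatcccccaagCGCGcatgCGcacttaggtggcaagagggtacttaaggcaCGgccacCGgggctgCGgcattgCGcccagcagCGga
Mest (chr6:30737800-30738099, plus strand): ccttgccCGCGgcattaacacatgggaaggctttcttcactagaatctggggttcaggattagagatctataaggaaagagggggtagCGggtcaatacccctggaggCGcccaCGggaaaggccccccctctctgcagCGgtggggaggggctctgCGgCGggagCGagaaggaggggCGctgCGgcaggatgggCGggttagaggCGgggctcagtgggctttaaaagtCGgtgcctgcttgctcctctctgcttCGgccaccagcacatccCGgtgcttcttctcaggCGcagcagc
The Peg3 window held 13 CG dinucleotides, and 37.9% of all 32851 promoter windows in the table held as many or more. The Nnat and Mest windows held 17 each, a count reached by 31.4% of all windows. Over the 50 windows of 32 members the median was 14.5 CG dinucleotides, against 7 over all windows. The Peg3 window also covers the start of Usp29 on the other strand, and it shares 263 bases with the Usp29 window. By the GENCODE M21 annotation the starts of Peg3 and Usp29 lie 147 bases apart. DNA methylation was not measured.

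The second set is the microRNAs that lie inside the long non-coding members. H19 holds Mir675, Meg3 holds Mir770, Rian holds 3 hairpins, Mirg holds 14, and 7 lie across the span of Rtl1, 6 of them on its opposite strand. The 27 hairpins counted in these genes and in Igf2 give 51 annotated mature microRNAs with 50 different seeds, the stretch from base 2 to base 8 that pairs with targets. The seed is in capitals in the sequences from RefSeq below, shown for H19, for the Rtl1 antisense strand and for Mirg.
mmu-miR-675-5p: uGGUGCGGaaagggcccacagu
mmu-miR-675-3p: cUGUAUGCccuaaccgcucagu
mmu-miR-127-3p: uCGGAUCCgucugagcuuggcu
mmu-miR-410-3p: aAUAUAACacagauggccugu
The third set is the only pair of these mature microRNAs with a shared seed, and both of its hairpins lie within Mirg.
mmu-miR-453: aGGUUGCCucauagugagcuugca
mmu-miR-496a-5p: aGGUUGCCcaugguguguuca
Mature microRNAs were not measured, and the Mir675 and Mir770 genes were listed at 0 FPKM in all 4 stages, so the host transcripts alone are described.

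Stages were compared on the log2(FPKM + 1) scale after median-of-ratios scaling, which understates the differences of low genes. With 1 sample per stage, calls of higher and lower follow a rule of size, which asks for a 2-fold difference or more on that scale and for 5 FPKM or more in the higher stage. A secondary test with limma used the recovered libraries of 13046 genes, among them 24 members, and there "rose" and "fell" mean an adjusted p of 0.05 or less after Benjamini-Hochberg adjustment. The most abundant members had too many reads to be resolved into libraries and have no test. Standard deviations (SD) are over the 2 recovered libraries of a stage. Scaling the stages to the same total FPKM, run as an alternative, moved the median of all measured genes by -0.11, -0.41 and 0.11 on the log2 scale over the 3 consecutive steps and by -0.46 over the whole interval. Its calls are given for the members only, so the counts of other gene lists and of markers hold for the main scaling. Where it changes a member's result given below, this is said beside the result or in the closing section.

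The E11.5 sample stood apart from the other 3 in its cell type markers. Pdx1, a transcription factor that defines the pancreatic epithelium, was at 2.94, 79.1, 60.7 and 77.5 FPKM from E11.5 to E18.5, and all 12 epithelial markers summed to 1229, 3193, 3828 and 4503 FPKM. Markers of neurons and neural crest summed to 1262, 26.7, 20.7 and 54.0 FPKM, those of mesenchyme to 233, 51.8, 47.4 and 73.8 FPKM, and those of red blood cells to 9540, 222, 172 and 310 FPKM. Each of the 8 endothelial markers was below 1 FPKM in every stage. In such bulk samples, fewer cells of a type and less RNA per cell cannot be told apart. Comparisons that share a stage are not independent of each other.

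Taken over all 40 genes, imprinted transcripts made up 1.37%, 0.395%, 0.421% and 0.505% of all FPKM from E11.5 to E18.5. The gene that led this total differed between stages. Nnat alone gave 68.2% of it at E18.5 and 81.8% at E11.5, Dlk1 gave the highest share at E13.5 with 25.8%, and H19 gave 56.3% at E15.5. Of the 35 measured members, the highest stage was E11.5 for 10, E13.5 for 9, E15.5 for 9 and E18.5 for 7. The 9 at E13.5 were 25.7% of them, against 10.5% of all 14843 measured genes. The lowest stage was E11.5 for 16 members, which is 45.7%, against 34.1% of all measured genes.

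**Figure D1:**
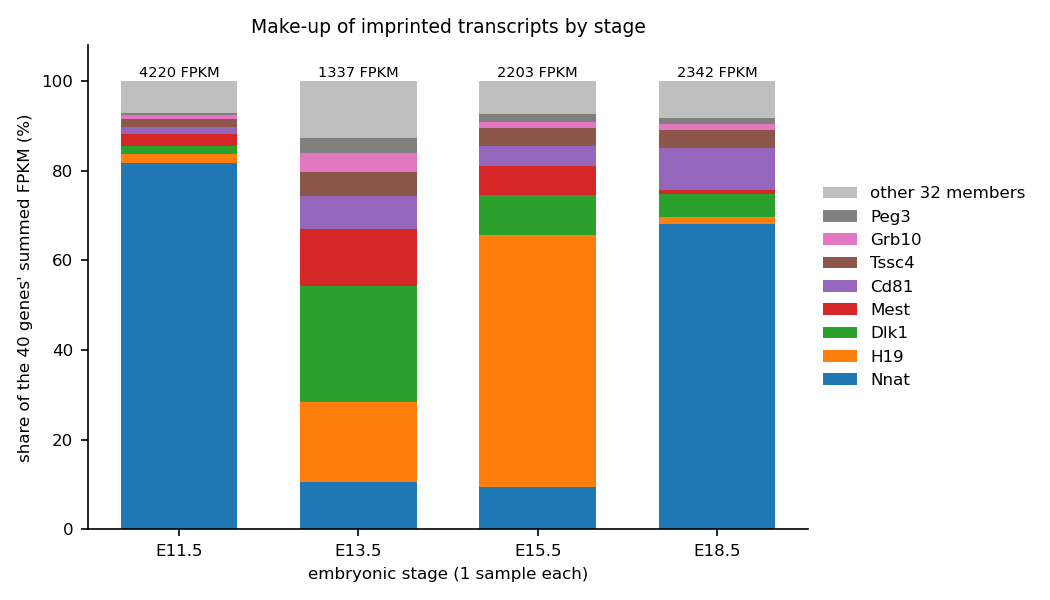
Share of the summed FPKM of the 40 imprinted genes taken by each gene, in percent, for the 1 sample of each stage (scaled FPKM totals above the bars). Nnat fills most of the bars at E18.5 (68.2%) and E11.5 (81.8%), and H19 fills 56.3% at E15.5.

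At E13.5 against E11.5, 6 of 35 measured members were higher and 4 were lower by the rule of size. These are 17.1% and 11.4% of the members, where 5.77% and 5.73% of all 14843 measured genes were higher and lower. H19, Dlk1, Meg3, Peg3, Slc22a18 and Ascl2 were higher, and Nnat, Ndn, Snrpn and Dcn were lower. The median difference was 0.43 over the members and -0.03 over all genes. By limma, 13 of 24 tested members rose and 5 fell, against 30.8% and 37.2% of all tested genes.

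At E15.5 against E13.5 the members differed least. H19 and Kcnq1 were higher and Asb4 was lower, which is 5.71% and 2.86% of the measured members, against 3.64% and 1.48% of all genes. Scaling the stages to the same total FPKM instead gave 1 member higher and 5 lower in this comparison. By limma 11 tested members rose and 5 fell, where 28.4% and 27.0% of all genes did, and with the same total 4 rose and 15 fell. Without the second recovered E13.5 library 7 rose.

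At E18.5 against E15.5, Nnat, Ndn, Slc22a18, Cd81, Gnas and Dcn were higher, and H19, Mest and Ascl2 were lower. The 6 and 3 members are 17.1% and 8.57% of those measured, against 6.29% and 5.54% of all genes. The median difference was -0.13 over the members and 0.04 over all genes. By limma 7 tested members rose and 10 fell, against 38.4% and 30.0% of all tested genes. With the same total in each stage 9 rose and 7 fell.

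Over the whole interval, E18.5 against E11.5, 7 members were higher (Meg3, Peg3, Kcnq1, Phlda2, Slc22a18, Cd81 and Gnas) and 6 were lower (H19, Nnat, Mest, Ndn, Snrpn and Asb4). These shares of 20.0% and 17.1% stand against 10.4% and 7.55% of all measured genes. By limma 13 tested members rose and 6 fell, where 36.8% and 38.0% of all tested genes did. With the same total in each stage Meg3 and Peg3 no longer passed the rule of size, and Copg2 and Impact joined the lower members. By limma 9 of the tested members then rose and 13 fell, and at E13.5 against E11.5 8 fell. With the main scaling, 16 members in all passed the rule of size in at least 1 comparison.

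**Figure D2:**
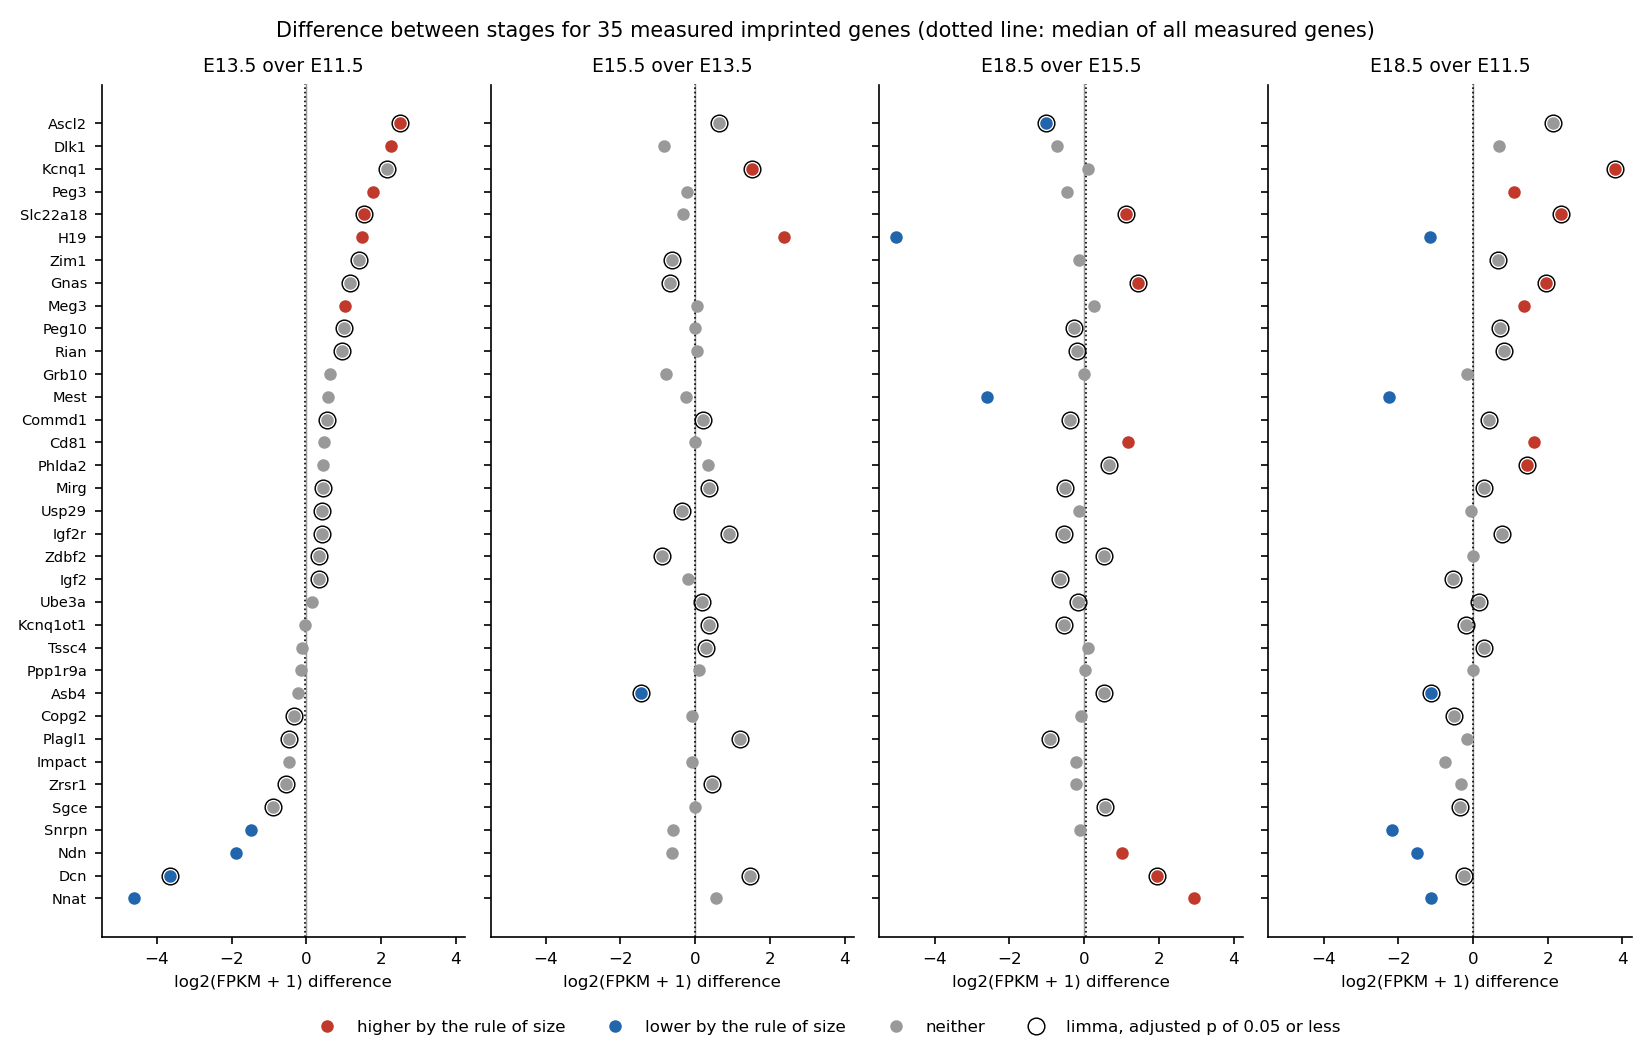
Difference on the log2(FPKM + 1) scale for each of the 35 measured imprinted genes (rows) in the 4 comparisons of stages (panels), with the later stage minus the earlier. Colours mark the rule of size, rings mark limma calls and the dotted line is the median of all measured genes. Nnat lies lowest at E13.5 over E11.5 (-4.60) and H19 lowest at E18.5 over E15.5 (-5.04).

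H19, Igf2 and Igf2r belong to growth control by insulin-like growth factor 2. H19 is a maternally expressed non-coding RNA that shares an imprinting control region and enhancers with Igf2, which encodes the growth factor, and Igf2r encodes a receptor that clears it. H19 (chr7:142575529-142578143, minus strand) was at 83.6, 239, 1239 and 36.8 FPKM in stage order, so the E15.5 sample was high and the E18.5 sample was low. It ranked 1748 among all identifiers at E18.5, against 39 at E15.5. The difference was 2.37 at E15.5 against E13.5 and -5.04 at E18.5 against E15.5, which is the largest of any member in any comparison. At the outer stages, where libraries could be recovered, they agreed closely, with SDs of 0.777 FPKM at E18.5 and 1.57 FPKM at E11.5.

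The listed level of Igf2 was low, at 0.599 ± 0.0783, 1.01 ± 0.0748, 0.746 ± 0.0580 and 0.109 ± 0.0583 FPKM from E11.5 to E18.5 (SD, n = 2 libraries). Igf2 shares 62.8% of its exon bases with Gm49394, a gene on the same strand that was listed at 0 FPKM in every stage. The sources used here do not say whether reads in shared bases were left uncounted. Of 133 protein-coding genes whose exons lie wholly within other genes on their strand, 79.7% were listed at 0 in all stages, against 21.6% of 15460 genes without overlap, so the level of Igf2 was not set beside those of other genes. As listed, Igf2 fell at E18.5 against E15.5 (limma difference -0.66, SE 0.08, adjusted p = 0.000392), and both E18.5 libraries lay below all libraries of the other stages.

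Igf2r was at 1.98 ± 0.142, 2.97 ± 0.0183, 6.4 ± 0.213 and 4.14 ± 0.305 FPKM in stage order. Its exons overlap no other gene. It rose at E15.5 against E13.5 by 0.90 (SE 0.07, limma adjusted p = 9.16e-05) and fell at E18.5 against E15.5 by 0.53 (limma adjusted p = 0.000465). No pair of stages overlapped between libraries.

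In the Dlk1-Meg3 domain on chromosome 12, Dlk1 encodes a transmembrane protein of the Notch ligand family that restrains differentiation in several lineages, and it is paternally expressed. Dlk1 was at 70.8, 345, 193 and 116 FPKM from E11.5 to E18.5. It was higher at E13.5 than at E11.5 by 2.27 on the log2 scale and was lower at each stage after that. It passed the rule in no later step, although with the same total in each stage it was lower at E15.5 than at E13.5 past the rule, with a difference of -1.46. Meg3, Rian and Mirg are maternally expressed non-coding RNAs read from the same strand, of which Rian hosts small nucleolar RNAs and Mirg microRNAs. Meg3 was at 7.78, 17.0, 17.7 and 21.7 FPKM, so the later stages were close to or above its E13.5 level. With the same total in each stage the Meg3 difference at E15.5 against E13.5 was -0.53. Its difference at E13.5 against E11.5 was 1.03, just past the rule, and 0.92 when the stages were scaled to the same total. With that scaling the difference over the whole interval was 0.83, which does not pass the rule either.

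The downstream transcripts were lower in level than Meg3. Rian was at 0.852 ± 0.0485, 2.63 ± 0.0873, 2.78 ± 0.00715 and 2.28 ± 0.0530 FPKM, and it rose at E13.5 against E11.5 (limma difference 0.97, SE 0.06, adjusted p = 1.32e-05). Mirg ranged from 0.409 to 1.47 FPKM and rose in the same comparison (limma difference 0.44, adjusted p = 0.00572). Rtl1, a retrotransposon-derived gene needed in placenta, lies on the opposite strand and was below 1 FPKM in every stage, at 0.0825 to 0.516 FPKM. All 5 genes of the domain were lowest at E11.5.

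Peg3, a zinc finger gene, and Usp29 start 147 bases apart in opposite directions by the GENCODE M21 annotation, and Zim1 lies beside them. Peg3 was at 12.3, 44.6, 38.0 and 27.3 FPKM in stage order. It was higher at E13.5 than at E11.5 by 1.78, and higher at E18.5 than at E11.5 by 1.09, or by 0.53 with the same total in each stage. Usp29, which encodes a ubiquitin-specific peptidase, was at 0.789 to 1.5 FPKM and was also highest at E13.5. It rose at E13.5 against E11.5 (limma difference 0.43, adjusted p = 0.00129), although 14.3% of its exon bases lie on the strand opposite Zim3. Zim1, a maternally expressed zinc finger gene, was at 0.844 ± 0.0391, 3.93 ± 0.260, 2.20 ± 0.0852 and 1.90 ± 0.102 FPKM. It rose at E13.5 against E11.5 by 1.42 (SE 0.07, limma adjusted p = 4.88e-06) and fell at E15.5 against E13.5 by 0.62 (limma adjusted p = 0.000434). All 3 genes of this domain, of both parental kinds, were thus highest at E13.5.

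**Figure D3:**
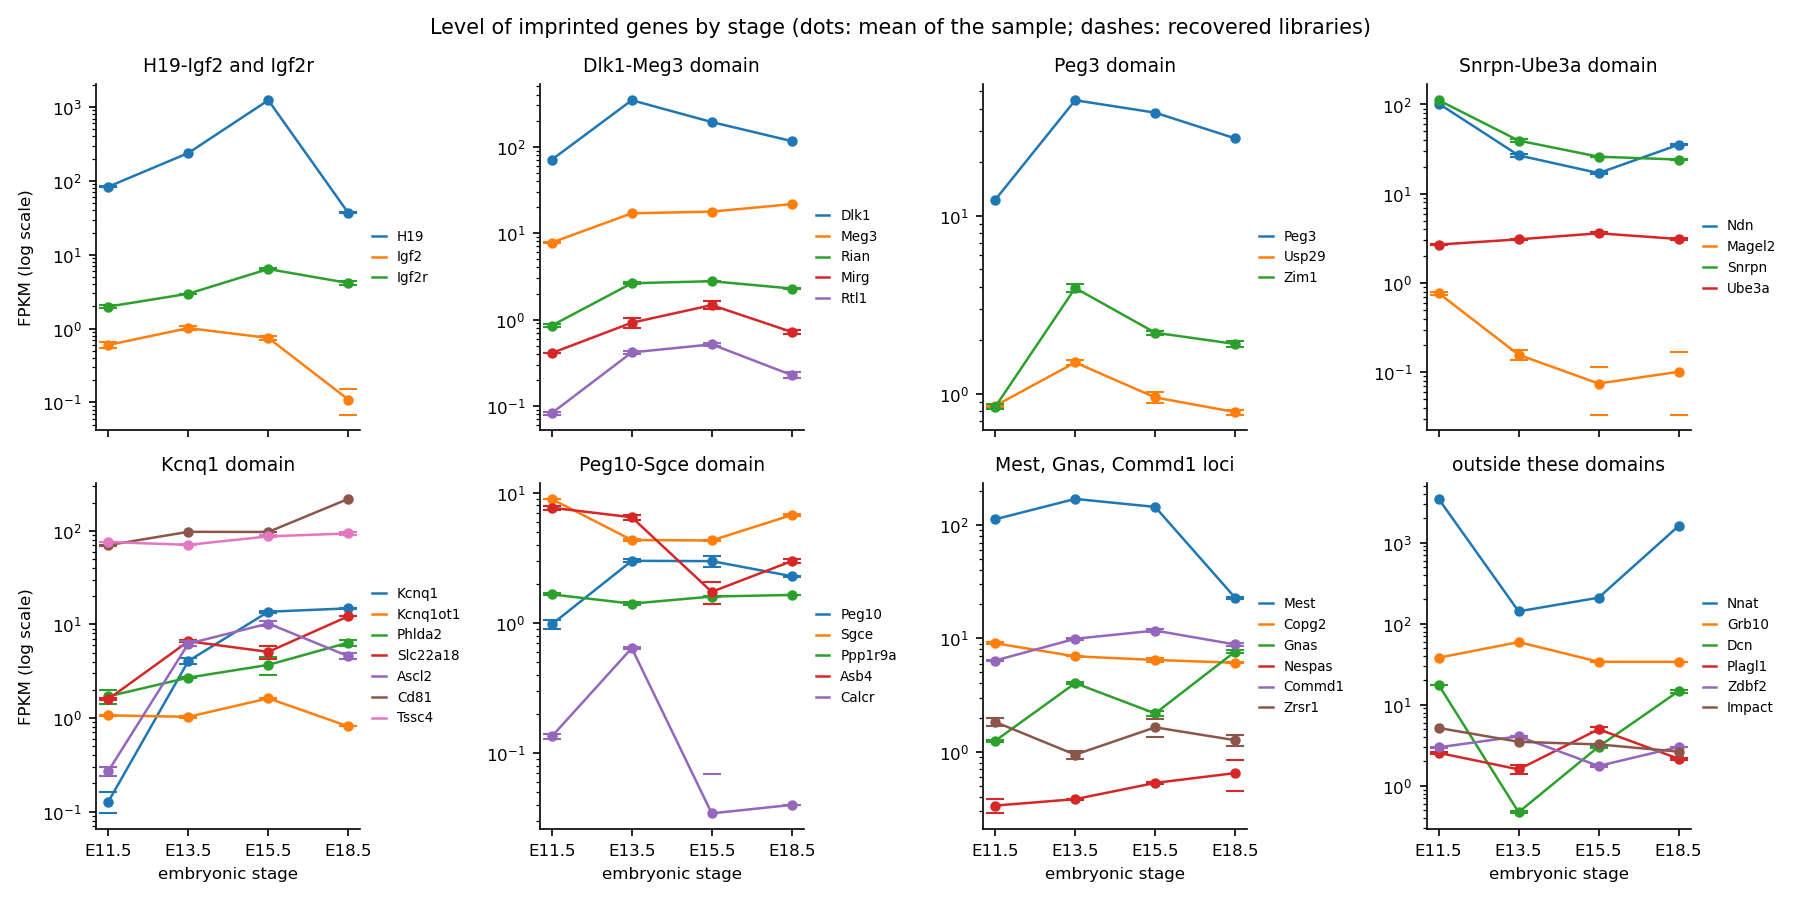
FPKM by stage on log axes for 39 imprinted genes, in panels by domain. Dots are the mean of the 1 sample per stage and dashes the 2 recovered libraries where they could be resolved. Snurf was at 0 in every stage and is left out, and 1 Calcr library at E15.5 was at 0 and is not drawn. All genes of the Peg3 panel are highest at E13.5 and all genes of the Dlk1-Meg3 panel lowest at E11.5.

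Neuronatin (Nnat), a paternally expressed gene for a small membrane protein of the endoplasmic reticulum with a known part in insulin secretion, had the highest level of all members. It was at 3454, 142, 209 and 1598 FPKM from E11.5 to E18.5, ranking 29 among all identifiers at E18.5 and 3 at E11.5. The E11.5 and E18.5 samples were thus high and the 2 between them low. The difference was -4.60 at E13.5 against E11.5 and 2.93 at E18.5 against E15.5. Neuron and neural crest markers moved with the first difference, since 7 of 10 were lower at E13.5 than at E11.5, among them Gap43 at 2.38 against 520 FPKM and Stmn2 at 0.565 against 129 FPKM. Endocrine markers moved with the second, since 10 of 10 were higher at E18.5 than at E15.5, among them Gcg at 15770 against 1384 FPKM and Ins2 at 5328 against 615 FPKM. At E13.5 against E11.5, where Nnat was lower, 7 of these endocrine markers were higher and 2 lower (Neurod1 and Isl1). Of the neuron and neural crest markers, 2 were higher (Tubb3 and Gap43) and 1 lower (Ret) at E18.5 against E15.5. The summed neuron and neural crest markers reached 54.0 FPKM at E18.5, against 1262 FPKM at E11.5, and none was at 0 at either stage. The part of either marker set in the Nnat differences was not tested.

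In the Snrpn-Ube3a domain, which is deleted or silenced in Prader-Willi syndrome in humans, the paternally expressed genes were highest at E11.5. Ndn, which encodes necdin, a protein first described in neurons, was at 102, 26.9 ± 1.38, 17.0 ± 0.773 and 35.4 ± 0.461 FPKM. Snrpn, which encodes a small nuclear ribonucleoprotein, was at 112, 39.4 ± 2.22, 26.0 ± 0.130 and 24.2 ± 0.842 FPKM. It shares 27.3% of its exon bases with genes on the same strand and 34.1% with genes on either strand. How reads in shared bases were counted is not stated, so its listed level may not be its full level. At E13.5 against E11.5 the log2 difference was -1.89 for Ndn and -1.48 for Snrpn, in the comparison in which the neuron markers above were lower. At E18.5 against E15.5 Ndn was higher by 1.01, just past the rule, while the Snrpn difference was -0.10.

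Magel2 ranged from 0.0749 to 0.770 FPKM and was highest at E11.5. Snurf, which is read from the same transcript as Snrpn and lies wholly within its exons, was listed at 0 in every stage. Ube3a, a ubiquitin ligase gene that is maternally expressed in neurons, was at 2.70 ± 0.0573, 3.09 ± 0.0561, 3.61 ± 0.147 and 3.11 ± 0.120 FPKM. Its limma difference was 0.17 at E15.5 against E13.5 (adjusted p = 0.0348), but -0.31 with the same total in each stage, and leaving out single libraries gave limma adjusted p-values of 0.0448 to 0.134. At E18.5 against E15.5 the limma difference was -0.17 (adjusted p = 0.0345), but -0.03 and not called with the same total in each stage. It was -0.20 without E15.5 library 1 and -0.13 without E15.5 library 2, and not every fit that leaves out a library kept the call. Counting by strand is not stated, and 27.3% of its exon bases are shared with transcripts on the other strand.

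**Figure D4:**
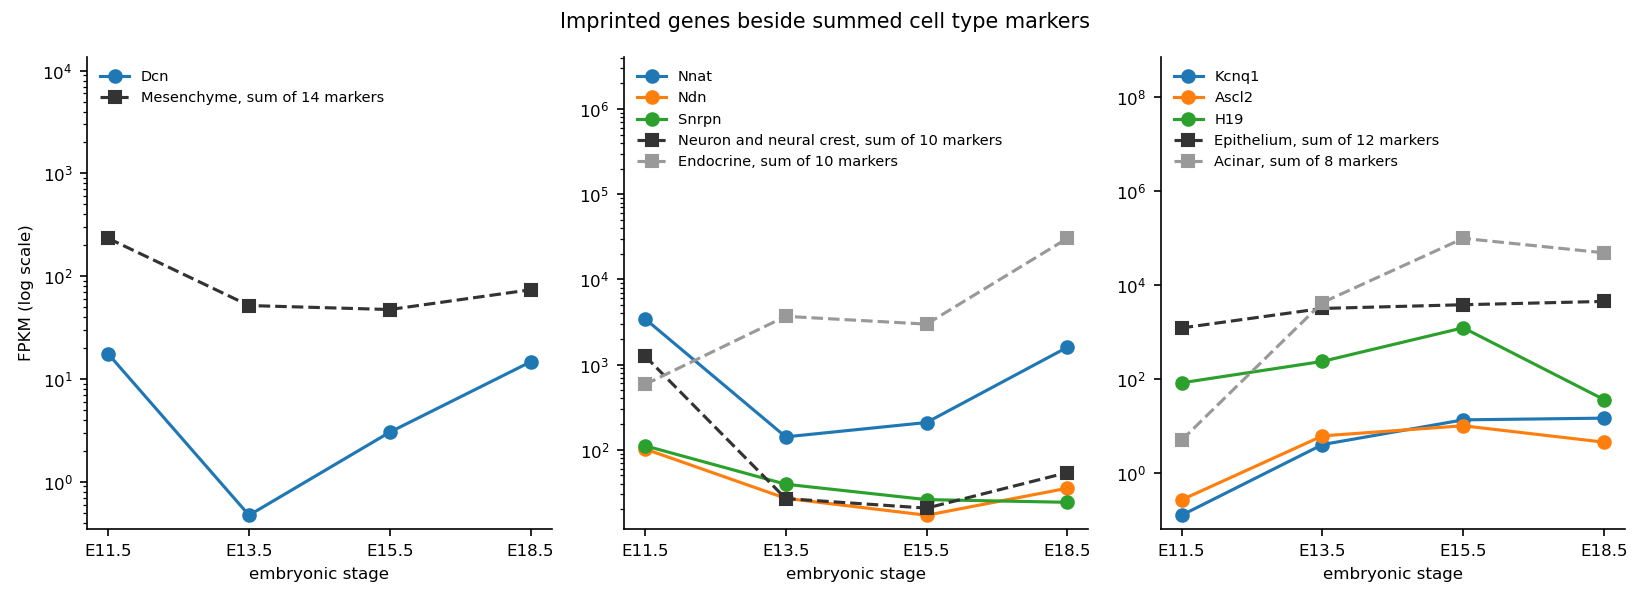
FPKM by stage on log axes for Dcn beside summed mesenchyme markers (left), for Nnat, Ndn and Snrpn beside summed neuron and neural crest and summed endocrine markers (middle), and for Kcnq1, Ascl2 and H19 beside summed epithelial and acinar markers (right). Dcn is lowest at E13.5 (0.472 FPKM), and the neuron and neural crest sum is at 54.0 FPKM at E18.5, against 1262 FPKM at E11.5.

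The Kcnq1 domain on chromosome 7 holds maternally expressed genes that the paternally expressed antisense RNA Kcnq1ot1 is known to silence in cis. Kcnq1, which encodes a potassium channel subunit, was at 0.128 ± 0.0456, 4.07 ± 0.451, 13.7 ± 0.407 and 14.8 ± 0.103 FPKM from E11.5 to E18.5. It rose at E13.5 against E11.5 by 2.17 (SE 0.07, limma adjusted p = 1.09e-06) and at E15.5 against E13.5 by 1.53 (SE 0.07, limma adjusted p = 1.92e-05). With the same total in each stage this second difference was 0.98, called by limma and just short of the rule of size. The E18.5 and E15.5 levels differed by 0.11 (SE 0.07, limma adjusted p = 0.205), and by 0.27 with the same total, where limma called it (adjusted p = 0.017). With a FPKM of 14.8 at E18.5 against 0.128 at E11.5 it had the largest ratio of any measured member, 116-fold on the FPKM scale.

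Kcnq1ot1 lies within the span of Kcnq1 on the other strand. It was at 1.07 ± 0.0174, 1.03 ± 0.0341, 1.62 ± 0.0119 and 0.814 ± 0.00150 FPKM, with a limma difference of -0.03 (SE 0.06) at E13.5 against E11.5 and an adjusted p of 0.707. Its limma difference at E15.5 against E13.5 was 0.37 (adjusted p = 0.00219), but 0.02 and not called with the same total in each stage. It fell at E18.5 against E15.5 by 0.53 (limma adjusted p = 0.000275). Without stated counting by strand, reads from introns of Kcnq1 and from Kcnq1ot1 cannot be told apart.

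Ascl2, a basic helix-loop-helix factor known from trophoblast and intestinal stem cells, was at 0.272 ± 0.0436, 6.22 ± 0.544, 10.2 ± 0.776 and 4.57 ± 0.462 FPKM. It rose at E13.5 against E11.5 by 2.504 (SE 0.09, limma adjusted p = 1.55e-06) and at E15.5 against E13.5 by 0.64 (limma adjusted p = 0.00135), and fell at E18.5 against E15.5 by 1.01 (limma adjusted p = 0.000103). With the same total in each stage the E15.5 against E13.5 limma difference was 0.08 and was not called, and the last difference was -0.84 and did not pass the rule of size. Epithelial and acinar markers moved with the first step of Kcnq1 and Ascl2. Of 12 epithelial markers 10 were higher at E13.5 than at E11.5, among them Nkx6-1 at 53.0 against 1.5 FPKM, and of 8 acinar markers all were higher. Acinar markers summed to 5.05, 4264, 98720 and 48630 FPKM in stage order. Their part in these results was not tested.

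Slc22a18, which encodes a membrane transporter, was at 1.59 ± 0.0726, 6.6 ± 0.183, 5.09 ± 1.15 and 12.2 ± 0.00785 FPKM. It rose at E13.5 against E11.5 by 1.55 and at E18.5 against E15.5 by 1.13 (limma adjusted p = 4.05e-05 and 0.000213). Its E15.5 libraries, at 5.90 and 4.28 FPKM, spread more than those of the other stages, and the E15.5 against E13.5 difference was -0.33 (limma adjusted p = 0.0511). It was called lower with the same total in each stage (-0.86, limma adjusted p = 0.000553) and without E15.5 library 1 (-0.53, limma adjusted p = 0.00186). Phlda2, a growth-restraining gene of the placenta, was at 1.70 ± 0.412, 2.70 ± 0.0798, 3.69 ± 1.15 and 6.38 ± 0.662 FPKM. Only its last step passed the test among the consecutive ones, with a limma difference of 0.67 (SE 0.18, adjusted p = 0.0153), and it was not called without E15.5 library 2 or without E18.5 library 2 (limma adjusted p up to 0.0827). The E13.5 against E11.5 difference of 0.46 was called without either E15.5 library (limma adjusted p = 0.0213 and 0.0212). Its limma difference was 0.32 at E15.5 against E13.5, called without E15.5 library 2 (adjusted p = 0.0291), but -0.15 with the same total in each stage. Over E18.5 against E11.5 the limma difference was 1.45 (SE 0.18, adjusted p = 0.000341).

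Cd81 and Tssc4, which lie between Ascl2 and Kcnq1 and are known to be imprinted mainly in placenta, were the most abundant of the 7 members listed for the domain. Cd81, which encodes a tetraspanin, was at 70.3 ± 1.46, 97.6, 97.3 ± 0.988 and 219 FPKM, and it was higher at E18.5 than at E15.5 by 1.17. Tssc4 was at 76.0 ± 0.0252, 70.8 ± 0.984, 87.3 ± 2.92 and 93.8 ± 3.97 FPKM, and its limma difference at E15.5 against E13.5 was 0.30 (adjusted p = 0.00147), but -0.32 with the same total in each stage. Of these 7 members 4 were higher at E18.5 than at E11.5 by the rule of size, where 10.4% of all measured genes were, and none was lower, where 7.55% were. Cdkn1c and Nap1l4 of the same region, which are not among them and are described further on, were both lower in this comparison.

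**Figure D5:**
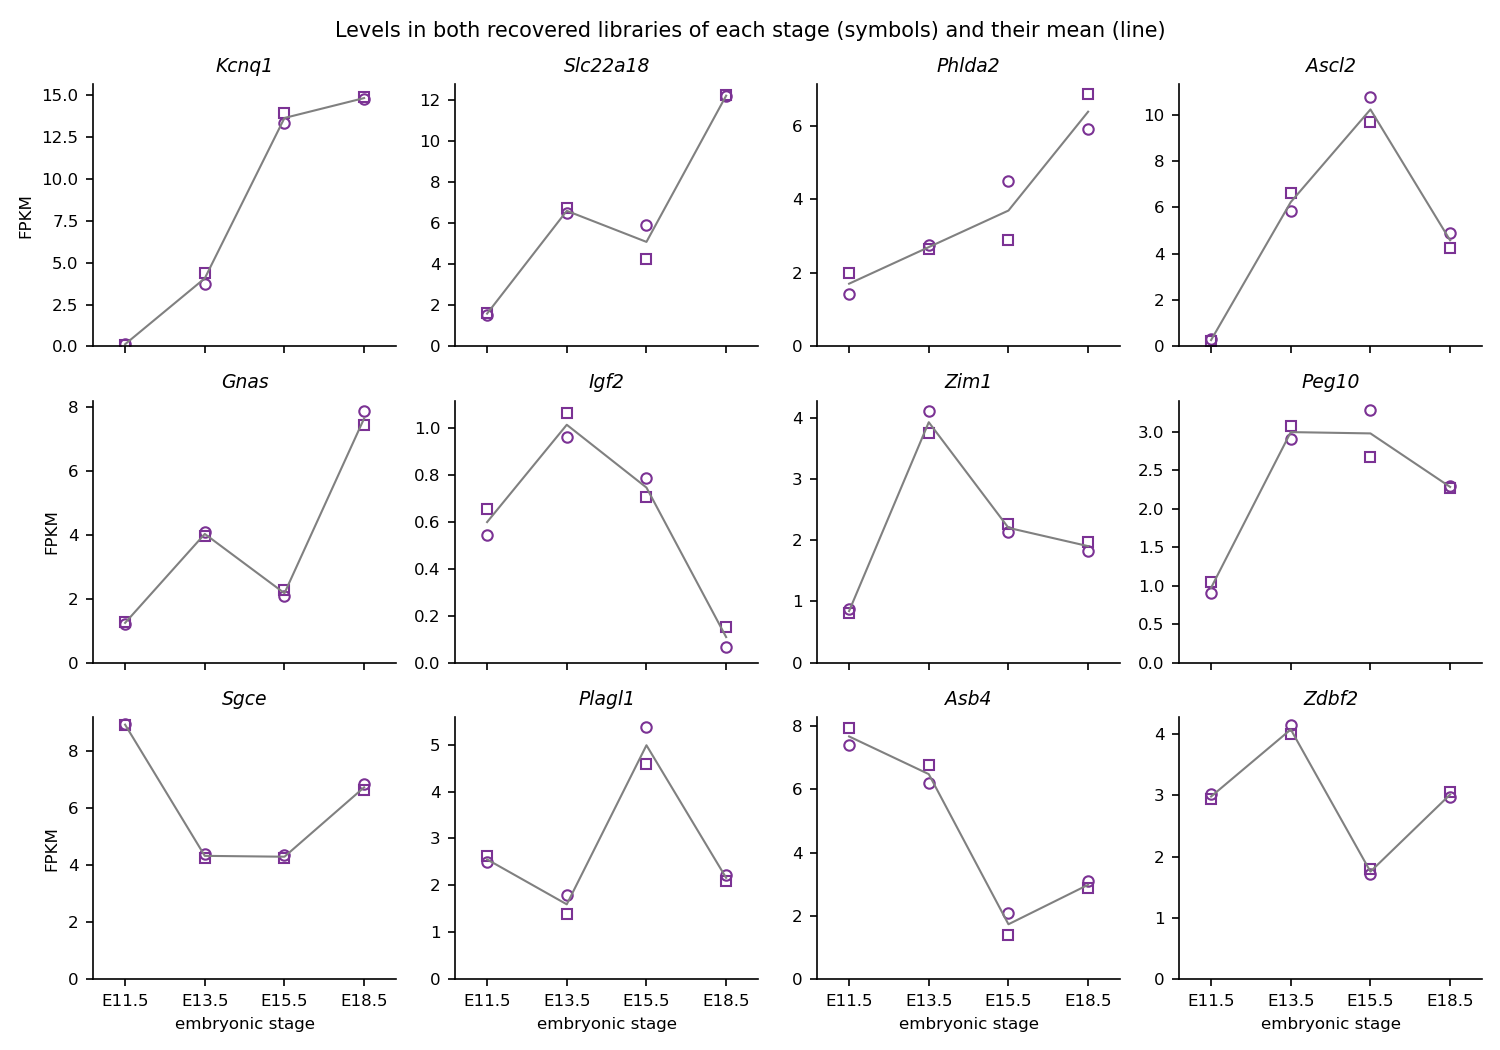
FPKM in both recovered libraries of each stage (circles and squares) and their mean (line) for 12 imprinted genes on linear axes from 0. The libraries of a stage lie close together beside the differences between stages for Kcnq1, Ascl2 and Gnas, and are farthest apart for Slc22a18 and Phlda2 at E15.5 (SD 1.15 FPKM each).

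Mest encodes an enzyme of the alpha/beta hydrolase family, is paternally expressed and is known from growing fetal tissue. It was at 113, 171, 145 and 22.9 ± 0.681 FPKM from E11.5 to E18.5, so the E18.5 sample was low and the other 3 were high. The E18.5 sample differed by -2.61 from E15.5 and by -2.25 from E11.5. Its neighbour Copg2, which encodes a subunit of the vesicle coat COPI, runs the other way and shares 912 exon bases with it. Copg2 was at 9.05 ± 0.231, 6.95 ± 0.00811, 6.45 ± 0.403 and 6.10 ± 0.120 FPKM. It fell at E13.5 against E11.5 by 0.34 (limma adjusted p = 0.00109), and at E18.5 against E15.5, the comparison in which Mest was lower, its limma difference was -0.07 (SE 0.05, adjusted p = 0.268), and 0.08 with the same total in each stage, not called either. Copg2 had a limma difference of -0.09 at E15.5 against E13.5 (adjusted p = 0.163), which was -0.64 and called with the same total.

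Peg10 and Sgce, paternally expressed, start 99 bases apart in opposite directions and differed in opposite directions at the first step. Peg10, a retrotransposon-derived gene needed in placenta, was at 0.975 ± 0.104, 3.0 ± 0.120, 2.98 ± 0.430 and 2.29 ± 0.0256 FPKM. Sgce, which encodes epsilon-sarcoglycan, was at 8.94 ± 0.0350, 4.33 ± 0.114, 4.30 ± 0.0684 and 6.74 ± 0.144 FPKM. At E13.5 against E11.5 Peg10 rose by 1.02 (SE 0.09, limma adjusted p = 7.66e-05) and Sgce fell by 0.90 (SE 0.04, limma adjusted p = 5.11e-06). With the same total in each stage the Sgce limma difference was -1.05, more than 2-fold. At E15.5 against E13.5 neither was called, with limma differences of -0.01 each, but with the same total in each stage both were called lower (Peg10 -0.48, limma adjusted p = 0.00265, and Sgce -0.51, limma adjusted p = 6.4e-05). At E18.5 against E15.5 Sgce rose by 0.55 (limma adjusted p = 6.09e-05). The Peg10 limma difference there was -0.27 (adjusted p = 0.0308), but it was not called with the same total, or in 5 of the 8 fits that leave out a library (limma adjusted p 0.0102 to 0.134). Neither gene shares exon bases with another gene.

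Asb4, in the same region and a gene for a subunit of ubiquitin ligases, was at 7.67 ± 0.396, 6.48 ± 0.406, 1.73 ± 0.483 and 2.98 ± 0.159 FPKM. It fell at E15.5 against E13.5 by 1.46 (SE 0.12, limma adjusted p = 0.000148) and was the only member lower in that comparison by the rule of size. Ppp1r9a, which encodes the actin-binding protein neurabin 1, ranged from 1.41 to 1.66 FPKM, and none of its 4 comparisons passed the limma test, with the largest difference -0.14 (SE 0.06, adjusted p = 0.0671). With the same total in each stage limma called it lower at E13.5 against E11.5 (-0.25), in the next step (-0.26) and over the whole interval (-0.39), with adjusted p of 0.000724 to 0.00799. Calcr, the calcitonin receptor gene, was at 0.0344 to 0.640 FPKM and highest at E13.5.

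Gnas encodes the stimulatory G protein alpha subunit that couples receptors to adenylyl cyclase. The Gnas entry holds 19 exon blocks and several annotated starts. Its level therefore pools transcripts and is not that of the transcript for this subunit alone. Gnas was at 1.25 ± 0.0347, 4.03 ± 0.0770, 2.17 ± 0.136 and 7.64 ± 0.306 FPKM. It rose at E13.5 against E11.5 by 1.16 (SE 0.06, limma adjusted p = 6.42e-06) and at E18.5 against E15.5 by 1.45 (SE 0.06, limma adjusted p = 4.53e-06), and it fell at E15.5 against E13.5 by 0.66 (limma adjusted p = 0.000189). The endocrine markers summed to 585, 3685, 2987 and 30350 FPKM. By the rule of size 7 of the 10 were higher and 2 lower at E13.5 against E11.5, and all 10 were higher at E18.5 against E15.5. At E15.5 against E13.5 Gnas fell by limma but did not pass the rule of size. By that rule 3 endocrine markers were higher (Ins1, Ins2 and Iapp) and 1 was lower (Chgb), with a median difference of -0.33 over the 10. Chga, Neurog3, Neurod1, Gcg, Pax6 and Isl1 had negative differences that did not pass it. Gcg, the largest part of the sum, was at 1384 against 2402 FPKM. The part of the endocrine markers in the Gnas result was not tested. On the other strand, Gnas shares 13.1% of its exon bases with Gm20721 and 8.83% with Nespas, 22.0% in all. Gm20721 lies almost wholly within Gnas and was listed at 0 to 0.101 FPKM. The level of Gnas was therefore not set beside those of other genes. Of 56 protein-coding genes with 90% or more of their exon bases under genes of the opposite strand only, 87.5% were listed at 0 in all stages. Nespas, the antisense transcript of the locus, was below 1 FPKM, at 0.334 to 0.646.

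Grb10, which encodes an adaptor protein that restrains insulin and growth factor receptor signalling, was at 38.0, 59.2, 33.9 ± 0.151 and 33.8 ± 0.331 FPKM. It was highest at E13.5 and passed the rule of size in no comparison, although with the same total in each stage it was lower at E15.5 than at E13.5 past the rule, with a difference of -1.4. Plagl1, a zinc finger gene that is imprinted and overexpressed in transient neonatal diabetes in humans, was at 2.55 ± 0.0925, 1.59 ± 0.283, 4.99 ± 0.563 and 2.16 ± 0.0918 FPKM. It rose at E15.5 against E13.5 by 1.21 (SE 0.10, limma adjusted p = 0.000148) and fell at E18.5 against E15.5 by 0.92 (limma adjusted p = 0.000248). Its E15.5 level lay just under the 5 FPKM of the rule of size, so it counts in neither direction there.

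Zdbf2, a zinc finger gene, was at 2.98 ± 0.0645, 4.08 ± 0.109, 1.76 ± 0.0526 and 3.02 ± 0.0493 FPKM. It rose, fell and rose again over the consecutive steps, with limma differences of 0.35, -0.88 and 0.54 (adjusted p = 0.0011, 4.61e-05 and 0.000154). Zrsr1, a gene without introns that encodes a splicing factor, lies within Commd1 on the other strand and was at 0.939 to 1.83 FPKM. Commd1, which takes part in copper handling and protein sorting, was at 6.38 ± 0.0385, 9.93 ± 0.259, 11.7 ± 0.534 and 8.84 ± 0.374 FPKM, rising at E13.5 against E11.5 by 0.57 (limma adjusted p = 7.8e-05). Zrsr1 fell in the same comparison by 0.54 (limma adjusted p = 0.00975), and was not called without E11.5 library 2 or without E13.5 library 1 (limma adjusted p up to 0.069). Impact, a regulator of translation, was at 5.17, 3.49, 3.24 and 2.64 FPKM in stage order, and no pair of whole reads gave its values, so it has no test. With the same total in each stage Impact was lower at E18.5 than at E11.5 past the rule of size.

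Dcn encodes decorin, a matrix proteoglycan made by fibroblasts, and is imprinted in placenta. It was at 17.5 ± 0.196, 0.472 ± 0.0210, 3.04 ± 0.146 and 14.7 ± 0.785 FPKM. It fell at E13.5 against E11.5 (limma difference -3.655, SE 0.05, adjusted p = 7.84e-08), rose at E15.5 against E13.5 by 1.46 (limma adjusted p = 1.07e-05) and rose at E18.5 against E15.5 by 1.96 (SE 0.05, limma adjusted p = 1.48e-06). Mesenchyme markers were lower at the first step as well. Of 14 markers 9 were lower at E13.5 than at E11.5 and none was at 0, with Lum at 0.339 against 42.0 FPKM, Col1a1 at 0.50 against 12.4 FPKM and Col3a1 at 0.755 against 16.2 FPKM. At E15.5 against E13.5, where Dcn rose by limma, neither Dcn nor any of the 14 passed the rule of size. Lum, Col1a1 and Col3a1 differed by 1.23, 1.35 and 1.76 there. Their E15.5 levels were 2.15, 2.81 and 4.94 FPKM, under the 5 FPKM minimum of the rule, as was that of Dcn. The marker sum was 47.4 against 51.8 FPKM, and Vim gave most of it, at 27.5 against 43.8 FPKM. Vim, Foxf1 and Barx1 were lower at E15.5 than at E13.5, and the other markers were higher. At E18.5 Lum was at 11.4, Col1a1 at 5.51 and Col3a1 at 9.55 FPKM, and Lum was the only one of the 14 past the rule against E15.5. Pdgfrb, Tcf21, Foxf1 and Barx1 were below their E15.5 levels at E18.5, with Pdgfrb at 0.350 against 2.96 FPKM. The part of mesenchyme in the Dcn result was not tested.

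Grouped by the parental copy they are known to be expressed from in at least some tissues, 19 members were placed as paternally and 21 as maternally expressed. Of these, 15 and 20 were measured. The maternally expressed group holds Ube3a, Dcn, Cd81 and Tssc4, described above as imprinted only or mainly in certain tissues. Other members may also be imprinted in certain tissues only. Parental origin in these samples was not measured for any member, so the groups may not hold in this tissue. At E13.5 against E11.5, 2 paternally expressed members were higher and 3 lower, with a median difference of -0.03, and 4 maternally expressed members were higher and 1 lower, with a median of 0.52. At E18.5 against E11.5 the counts were 1 higher and 4 lower for paternally expressed members, with a median of -0.32, and 6 higher and 2 lower for maternally expressed ones, with a median of 0.54. Of all measured genes 5.77% were higher and 5.73% lower in the first of these comparisons and 10.4% and 7.55% in the second, with medians of -0.03 and 0. Paternally expressed members summed to 3890, 791, 652 and 1844 FPKM from E11.5 to E18.5, and Nnat made up most of this at the outer stages. Maternally expressed members summed to 330, 547, 1551 and 497 FPKM, and H19 made up most of the E15.5 sum.

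A list of 35 other imprinted genes, of which 26 were measured, gave 4 higher and 3 lower at E13.5 against E11.5, 1 and 2 at E15.5 against E13.5, 5 and 1 at E18.5 against E15.5, and 5 and 5 at E18.5 against E11.5. The shares of all measured genes higher and lower were 5.77% and 5.73%, 3.64% and 1.48%, 6.29% and 5.54%, and 10.4% and 7.55% in these comparisons. Cdkn1c, a cell cycle inhibitor of the Kcnq1 domain, was the most abundant, at 376, 177, 112 and 138 FPKM in stage order. Its difference at E18.5 against E11.5 was -1.44, while Kcnq1 of the same domain was higher. Nap1l4, a histone chaperone gene beside it, was at 136, 86.8, 53.5 and 65.5 FPKM, with a difference of -1.04 at E18.5 against E11.5. Slc38a4, an amino acid transporter gene, was at 7.37, 48.9, 21.0 and 44.97 FPKM, and Ddc, which encodes an enzyme of dopamine and serotonin synthesis, was at 5.22, 35.02, 60.2 and 20.9 FPKM. Nap1l5 was lower at E15.5 than at E13.5, at 2.03 against 8.10 FPKM, and higher at E18.5 than at E15.5, at 11.6 FPKM. Dlx5, a homeobox gene, was at 6.01, 0.0131, 0.0172 and 0 FPKM in stage order.

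Of 16 genes that maintain imprints, 13 were measured, and the rule of size was passed in a single comparison, E18.5 against E15.5, in which 4 were lower and none higher, where 5.54% of all measured genes were lower and 6.29% higher. These counts hold for the main scaling, and the same total in each stage was not run for this list. That scaling moved the median of all measured genes by 0.11 at E18.5 against E15.5 and by -0.46 at E18.5 against E11.5. The counts may therefore depend on it. Dnmt1, the maintenance DNA methyltransferase, was at 5.73 FPKM at E18.5 and 13.7 at E15.5. Uhrf1, which brings it to newly copied DNA, was at 10.51 against 31.2 FPKM, and Hells, a chromatin remodeler, at 3.08 against 9.24 FPKM. Trim28, the co-repressor bound by imprint-protecting zinc finger proteins, was at 27.8 against 63.2 FPKM. Ctcf, the insulator protein of the H19-Igf2 control region, was at 27.7 against 40.1 FPKM and did not pass the rule. Zfp57, chosen after its values were seen, was at 0.165 to 0.244 FPKM at the 3 later stages, against 4.26 FPKM at E11.5, below the minimum level of the rule.

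Of 15 genes of the insulin-like growth factor axis, 14 were measured. At E18.5 against E11.5, 1 was higher and 7 were lower, where 10.4% and 7.55% of all measured genes were, and the consecutive comparisons gave 1 higher and 3 lower, 1 and 3, and 1 and 2. Igfbp2, a binding protein of the growth factors, was lower at every step, at 444, 84.8, 34.1 and 13.54 FPKM. Igfbp7 was the gene higher at E18.5, at 290 FPKM, against 24.4 at E15.5, 21.6 at E13.5 and 9.71 at E11.5. Igfbp4 was at 72.0, 36.4, 7.39 and 8.88 FPKM, and Igfbp3 at 13.7, 0.754, 1.03 and 3.32 FPKM, with Igfbp3 lowest at E13.5 as Dcn was.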

How the data were processed

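The members and the gene lists were chosen with earlier results of these data known. The submitters' processing notes name HISAT2 2.0.5 and the mm10 build. The sources used here do not give the counting tool, strand setting, annotation or number of libraries. The deposited FPKM values, 1 per Ensembl gene in each of 4 samples, are averages per the file headers.

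Median-of-ratios factors (0.988, 1.03, 1.03 and 0.961 in stage order) came from 9884 genes that reached 1 FPKM in all stages. Values were divided by them, and a pseudocount of 1 FPKM was added before log2. FPKM times exon length (GENCODE M21) was split into whole reads of 2 libraries where only 1 pair gave the value to within 1.05 units of its last printed digit and chance would give at most 0.05 pairs. From 96.3% to 96.5% of the genes attempted were split. This rests on the values alone, the libraries carry no labels, and their numbers pair nothing between stages. As a secondary test, limma 3.58.1 (R 4.3.3, trend on) compared the genes with a value in each of the 8 libraries. The split, the rule of size and limma were tested on simulated data. Alternatives were another scaling, other pseudocounts, no minimum level, other folds and leaving out each library.

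Named genes followed a rule. All 40 members are accounted for, those at 5 FPKM or more in any stage with each stage's value and the others mostly by their range. Of each related or marker list described, up to 4 with the largest difference past the rule of size and up to 2 with the highest level could be named. The choice among these was made with their values known. Promoter windows were searched for CG on the printed strand, which is the same on both strands.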

Additional observations from a re-analysis of the deposited data

How the results depend on the processing

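No member past the rule of size changed direction under any alternative run. With the same total FPKM 7 differences gained a call by that rule and 5 lost one. Sgce at E13.5 against E11.5, and Copg2 and Impact for E18.5 against E11.5, were among those that gained one, all as lower. By limma, 6 called differences changed sign with the same total FPKM, at E15.5 against E13.5 Ube3a (-0.31), Tssc4 (-0.32) and Commd1 (-0.35), and for E18.5 against E11.5 Ube3a (-0.29), Tssc4 (-0.28) and Commd1 (-0.11). The last of these was no longer called. In all, 9 of the 96 differences lost their call with the same total and 17 gained one, 15 of the gained ones as lower. None of the called differences changed sign when a library was left out, and in each such fit from 4 to 8 lost their call and from 0 to 5 gained one. The same total moved the median of all measured genes by -0.11, -0.41, 0.11 and -0.46 (log2) in the 4 comparisons in the order of the report. At E15.5 against E13.5 it gave, by the rule of size, 1 member higher and 5 lower, with Dlk1, Grb10, Ndn and Snrpn joining Asb4 as lower and Kcnq1 at 0.98 no longer higher, and 4 rose and 15 fell by limma. By limma it also gave 8 that fell at E13.5 against E11.5, and 9 that rose and 13 that fell for E18.5 against E11.5. At E18.5 against E15.5 it gave 9 that rose and 7 that fell by limma. A pseudocount of 5 FPKM gave 0 lower at E15.5 against E13.5 and 3 higher at E18.5 against E15.5. With no minimum level 10 members were higher at E13.5 against E11.5 and 4 at E15.5 against E13.5. A fold of 1.5 gave 4 higher and 4 lower at E15.5 against E13.5. A fold of 3 gave 3 higher at E13.5 against E11.5, 1 higher and 0 lower at E15.5 against E13.5, 2 higher at E18.5 against E15.5, and 4 higher and 2 lower for E18.5 against E11.5. Leaving out each library in turn, with the lone library assumed to vary like the others, from 7 to 11 members rose by limma at E15.5 against E13.5, the lowest without E13.5 library 2. Restricting the count to the 26 members that share under 10% of their exon bases, chosen after the data were seen, moved no count past 1.5 times. The cause of these shifts was not tested beyond the settings' own construction. With 1 sample per stage, differences between stages cannot be told apart from differences between embryos or dissections. The 11 measured members without a test include the most abundant ones. No paired analysis was possible because the labels give no replicate numbers.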
